A study of Homo sapiens and Mus musculus with 33 samples.

Results

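In mouse colon epithelium, 840 peaks of histone H3 crotonylated at lysine 18 (H3K18cr) at gene starts overlapped no peak of histone H3 trimethylated at lysine 4 (H3K4me3). They were taken from the 30338 H3K18cr peaks of the deposited list, of which 10300 lay within 1 kb of a gene start of the colon RNA-seq table and 9933 of these were narrower than 5 kb. Of the 9933 promoter peaks, 9093 overlapped an H3K4me3 peak by at least 1 bp and 840 did not, a share of 8.46% (95% Wilson interval 7.93 to 9.02, which covers counting error only). The 840 peaks lay at the starts of 809 genes out of 25965 in the table. For 713 of these genes it was the only kind of H3K18cr promoter peak narrower than 5 kb, whereas 96 genes also had such a peak with H3K4me3 and were kept apart. The marks chose these promoters, so the absence of an H3K4me3 peak at them is not a result. The H3K4me3 table holds values for its own peaks only, so no H3K4me3 level can be given at these promoters. Below, no H3K4me3 means no called peak, and a mark too weak to be called counts as absent.

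The colon samples were epithelial cells dissociated from male C57BL/6 mice that received no treatment, with 2 H3K18cr libraries, 2 inputs, 3 H3K4me3 libraries with 1 input, and RNA-seq of 3 mice. Their age is not given in the sources used here. For ChIP-seq, in which immunoprecipitated chromatin is sequenced, the study's methods state that 3 colons were pooled, while a figure legend speaks of 2 mice, so the spread between ChIP libraries may be partly technical. HCT116, a line derived from a human colon carcinoma, received either the class I histone deacetylase (HDAC) inhibitor MS275 (entinostat, 5 µM) or its solvent DMSO for 18 h. From these cells there were 3 H3K18cr and 3 H3K18ac (acetylated lysine 18) libraries for each treatment, 1 input for each treatment and 4 RNA-seq libraries for each treatment. For HCT116 H3K18cr the methods speak of 2 replicates, without saying which, and all 3 deposited libraries of each treatment were used.

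H3K18cr is placed by the same enzymes that acetylate histones, among them p300, and is removed by class I HDACs. H3K4me3 is written by SET1 and MLL complexes, which are drawn to unmethylated CpG islands through subunits with CXXC domains. Promoters of broadly used genes mostly lie in such islands, whereas many tissue-specific promoters are poor in CpG, and some of these have a TATA box that fixes the start. In the colon, crypt stem cells give rise to absorptive colonocytes, which take up water and salt, and to goblet cells, which secrete mucus.

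Depth was modest for ChIP and higher for RNA. Within peaks, H3K18cr ChIP gave 2190272 and 3451663 reads and its inputs gave 1437984 and 1187019. H3K4me3 ChIP gave 1105419 to 2711830, with 770954 in its input, and RNA-seq of colon gave 8166406 to 10707901 counts per mouse. The cell label was borne out by marker genes. The 18 epithelial identity genes (keratins, cadherin and the like) summed to 16530 to 18676 CPM (counts relative to the library total), and 19 goblet and deep secretory genes to 20168 to 28371 CPM. Against this, 18 myeloid genes summed to 84.7 to 94.7 CPM, 17 T and NK cell genes to 67.2 to 106 CPM, 8 B and plasma cell genes to 0.245 to 9.07 CPM, and 18 stromal and muscle genes to 89.7 to 117 CPM. In such bulk samples, fewer cells of a type and less RNA per cell cannot be told apart.

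The sequence around the start is shown for the 4 genes with the highest RNA level among those with H3K18cr and no H3K4me3, and for the 2 highest among genes with both marks, because these classes differed in median CpG content. Each window runs from 250 bases before the start through the first 50 transcribed bases, 300 bases in all, read 5′ to 3′ on the gene's strand from the RefSeq genome of build GRCm38, and capitals mark CG dinucleotides. Agr2 (chr12:35992657-35992956, + strand) encodes a protein disulfide isomerase that goblet cells need to make mucin. Klk1 (chr7:44225187-44225486, + strand) encodes tissue kallikrein. Car1 (chr3:14778410-14778709, - strand) encodes carbonic anhydrase 1 of colonocytes. 1600029D21Rik (chr9:50494275-50494574, + strand) is listed under a clone name. Eef1a1 (chr9:78489102-78489401, - strand) and Eef2 (chr10:81176381-81176680, + strand) encode translation elongation factors.
Agr2: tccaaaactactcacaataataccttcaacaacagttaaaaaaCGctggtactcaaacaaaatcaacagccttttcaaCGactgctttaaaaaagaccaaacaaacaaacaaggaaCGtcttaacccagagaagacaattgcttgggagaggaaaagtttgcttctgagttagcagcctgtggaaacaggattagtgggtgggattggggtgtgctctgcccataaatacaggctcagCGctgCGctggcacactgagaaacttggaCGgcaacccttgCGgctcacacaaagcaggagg
Klk1: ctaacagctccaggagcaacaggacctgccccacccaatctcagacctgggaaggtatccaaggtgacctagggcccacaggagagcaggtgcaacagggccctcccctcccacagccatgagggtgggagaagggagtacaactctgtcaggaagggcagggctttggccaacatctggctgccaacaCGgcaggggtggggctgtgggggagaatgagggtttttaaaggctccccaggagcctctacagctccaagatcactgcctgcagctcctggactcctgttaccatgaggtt
Car1: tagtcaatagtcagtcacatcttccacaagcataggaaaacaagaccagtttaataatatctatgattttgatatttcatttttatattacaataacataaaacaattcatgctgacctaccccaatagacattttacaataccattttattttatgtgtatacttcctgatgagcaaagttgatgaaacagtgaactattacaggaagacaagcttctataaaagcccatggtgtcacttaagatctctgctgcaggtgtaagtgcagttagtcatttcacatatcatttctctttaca
1600029D21Rik: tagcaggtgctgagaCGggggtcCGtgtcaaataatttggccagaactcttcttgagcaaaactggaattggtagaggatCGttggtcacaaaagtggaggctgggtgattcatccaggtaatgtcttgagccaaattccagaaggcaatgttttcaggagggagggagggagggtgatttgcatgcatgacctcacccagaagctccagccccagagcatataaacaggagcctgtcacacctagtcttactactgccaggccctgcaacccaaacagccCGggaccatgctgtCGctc
Eef1a1: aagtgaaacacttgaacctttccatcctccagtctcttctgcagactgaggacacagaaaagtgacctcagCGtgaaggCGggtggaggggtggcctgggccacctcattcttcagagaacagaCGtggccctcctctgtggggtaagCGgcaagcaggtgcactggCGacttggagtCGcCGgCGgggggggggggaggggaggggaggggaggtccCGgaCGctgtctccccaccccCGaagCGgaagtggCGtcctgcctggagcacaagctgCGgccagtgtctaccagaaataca
Eef2: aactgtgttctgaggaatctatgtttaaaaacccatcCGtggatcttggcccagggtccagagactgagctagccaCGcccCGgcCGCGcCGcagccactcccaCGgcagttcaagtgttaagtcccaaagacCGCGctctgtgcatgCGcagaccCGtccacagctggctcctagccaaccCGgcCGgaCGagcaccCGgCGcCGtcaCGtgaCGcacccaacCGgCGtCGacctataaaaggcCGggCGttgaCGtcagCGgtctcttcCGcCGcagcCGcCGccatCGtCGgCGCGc
The Car1 window holds 0 CG dinucleotides, that of Klk1 holds 1, that of 1600029D21Rik 5 and that of Agr2 7, compared with 14 for Eef1a1 and 34 for Eef2. The observed number over that expected from the C and G content, the CpG ratio, was 0.448 for Agr2, 0.0375 for Klk1, 0.245 for 1600029D21Rik, 0.485 for Eef1a1 and 1.11 for Eef2. Eef1a1 was thus close to Agr2 in CpG ratio, and the windows of single genes from the 2 classes overlapped in it. A TATA box (TATAAA) begins 32 bases before the start of Car1 and 30 bases before that of 1600029D21Rik, each on the gene's strand, and one begins 15 bases before the start of Eef2 on its strand. A CDX site (TTTATGG) lies 30 bases before the start of Agr2 on the opposite strand. CDX1 and CDX2 are transcription factors of intestinal identity, and a match of letters is not shown to be a bound site.

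Promoters with H3K18cr and no H3K4me3 were poor in CpG. Over the 712 genes of this class with a window, the median was 5 CG dinucleotides and a CpG ratio of 0.262 (quartiles 0.152 and 0.407), while genes with both marks had medians of 22 and 0.786 (n = 10159). Genes with H3K4me3 only (n = 3754) had a median ratio of 0.651, and genes with neither mark (n = 10791) 0.188, against 0.481 over all 25946 windows. A ratio under 0.4 was found at 530 of the 712 starts (74.4%), compared with 10.1% of starts with both marks, 22.3% with H3K4me3 only, 83.4% with neither mark and 44.5% overall. GC content was 50% in the median, compared with 61.7% for genes with both marks. The low CpG content was not limited to silent genes, as the median ratio was 0.275 for the 405 genes with a mean of at least 1 CPM and 0.248 for the 307 below it. It was 0.268 for the 457 protein-coding genes of the class.

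Read from the other side, the share of H3K18cr promoters that lacked an H3K4me3 peak fell steeply with CpG content, as the plot of that share by CpG ratio shows. Of the genes with an H3K18cr promoter peak of one class alone, 254 of 556 (45.7%) had no H3K4me3 peak where the ratio was under 0.2. The share was 27.7% (276 of 997) from 0.2 to 0.4, 7.0% (105 of 1500) from 0.4 to 0.6, 1.82% (54 of 2969) from 0.6 to 0.8 and 0.474% (23 of 4849) at 0.8 and above. Among genes with a mean of at least 1 CPM the order was the same, from 37.2% to 0.359%. Among genes below 1 CPM it was 65.7% in the lowest bin and 1.77% in the highest. The Wilson intervals of neighbouring bins did not overlap over all genes or over genes at 1 CPM or more. Below 1 CPM, those of the 2 lowest bins overlapped, as did those of the 2 highest. These intervals cover counting error only, and genes are not independent replicates.

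**Figure D1:**
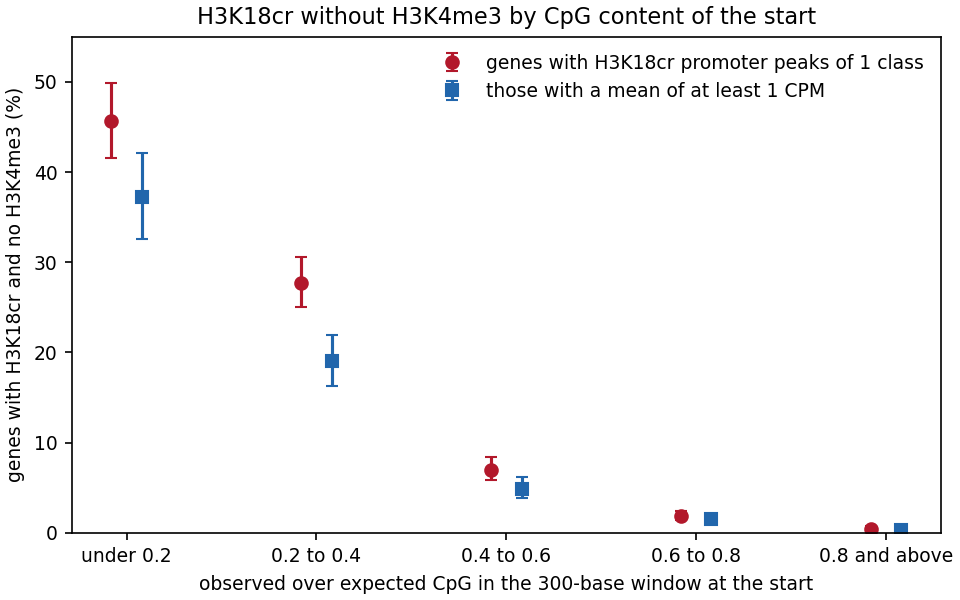
Share of genes with H3K18cr and no H3K4me3 at the start among these genes and those with both marks (%, vertical axis) by the CpG ratio of the 300-base window at the start (horizontal axis). Circles are the genes with H3K18cr promoter peaks of 1 class, which leaves out the 96 genes with both kinds of peak and the 434 with other H3K18cr peaks, and squares those with a mean of at least 1 CPM, and bars are 95% Wilson intervals. The share falls from 45.7% to 0.474% over all the genes plotted and from 37.2% to 0.359% over those at 1 CPM or more.

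Short motifs were counted in the same windows on both strands. A TATA box (TATAAA) was present in 15.4% of the starts with H3K18cr alone (Wilson interval 13 to 18.3), 6.13% of those with both marks, 21.6% of those with neither mark and 13.1% of all windows. Counting only matches on the gene's strand shortly before the start, the shares were 2.67% (19 of 712), 0.837%, 3.76% and 2.16% in that order. The GC box (GGGCGG), bound by Sp1 and KLF proteins, was present in 19.0% (16.3 to 22.0) against 67.0% with both marks, and the ETS site (CCGGAAG) in 5.06% against 19.1%. Both of these motifs contain CG dinucleotides. The CCAAT box (CCAAT), bound by NF-Y, was present in 41.9% of the starts, compared with 36.4% with both marks and 37.4% overall. Sites of intestinal and liver factors were rare in every class. The CDX site (TTTATGG) was in 4.35% (3.08 to 6.11) of the starts with H3K18cr alone, 1.60% with both marks and 3.53% with neither mark. The HNF4 site (CAAAGTCCA) was in 10 windows (1.40%, interval 0.765 to 2.57), the HNF1 site (GTTAATNAT) in 12 (1.69%, 0.967 to 2.92) and the GATA site (AGATAAG) in 28 (3.93%). With both marks these shares were 0.374%, 0.315% and 1.51%, and over all windows 0.451%, 0.725% and 2.73%. The HNF4, HNF1 and CDX shares of genes with H3K18cr alone were the highest of the 4 classes, although for CDX and HNF1 their intervals reached those of genes with neither mark. Among genes at 1 CPM or more, the HNF4 site was in 5 of 405 starts (1.23%, 0.529 to 2.86) with H3K18cr alone. With neither mark it was in 11 of 1338 (0.822%, 0.460 to 1.47). HNF1 was in 2.22% against 1.35% and CDX in 4.69% against 3.44%, and the intervals overlapped for each site.

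The peaks themselves were somewhat narrower and lower than promoter peaks with H3K4me3. Their median width was 1350 bp (300 to 4950), compared with 1650 bp, and the nearest start lay inside the peak in 493 of 840. Width is not independent of the rule, since a wider peak has more room to overlap an H3K4me3 peak. H3K18cr reads, scaled by the authors to the largest library, had medians of 58.3 and 88.6 per kb in replicates 1 and 2, against 69.7 and 112 for promoter peaks with H3K4me3 and 56.5 and 85.1 for the 16964 peaks away from starts without H3K4me3. Input reads per kb were alike, at 26.3 and 32.9 against 26.7 and 34.5. The log2 ratio of ChIP to input, after 1 was added to each scaled read count, had medians of 1.14 and 1.40, compared with 1.38 and 1.71 with H3K4me3 and 1.06 and 1.36 away from starts. Promoters without H3K4me3 were therefore lower by 11.4 and 23.5 reads per kb in the 2 libraries, and lower by 0.24 and 0.31 on the log2 scale in the ratio (exact two-sided sign-flip permutation test over libraries, p = 0.5 for both, which 2 libraries cannot go below). The difference in reads per kb was not seen among peaks with few input reads. When peaks with 20 or more input reads were left out, 125 peaks without and 325 with H3K4me3 remained and the mean difference was 1.26 reads per kb higher, with 2.52 in replicate 1 and 0 in replicate 2, while the ratio stayed lower by 0.19.

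**Figure D2:**
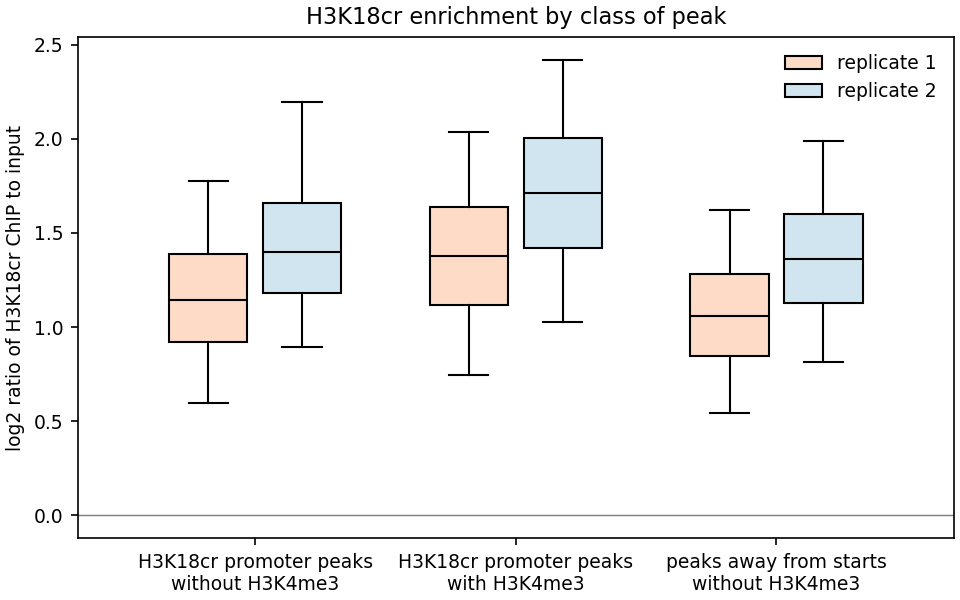
Log2 ratio of scaled H3K18cr reads to scaled input reads, 1 added to each (vertical axis), by class of peak and replicate. Boxes span the quartiles with the median as a line, and whiskers the 5th to 95th percentiles. The medians of promoter peaks without H3K4me3, 1.14 and 1.40, lie below those of promoter peaks with H3K4me3, 1.38 and 1.71, and near those of peaks away from starts, 1.06 and 1.36.

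Single peaks were measured with less certainty than the class. A ratio above 0 in both libraries was found at 838 of the 840 peaks, and a log2 ratio of at least 1 in both at 486 (57.9%), compared with 80.4% of promoter peaks with H3K4me3 and 47.9% of peaks away from starts. The peaks were called on these same libraries, so a ratio above 0 was largely set by the calling. Across the 840 peaks the scaled reads of the replicates had a Spearman correlation of 0.928, but reads rise with peak width, and the log2 ratios had one of 0.111. Peaks are not independent replicates and each list was called once for all libraries, so presence of a peak could not be compared between replicates. Peaks without H3K4me3 made up 16.9% of promoter peaks in the lowest of 4 equal bins of the ratio, 10.3% and 4.35% in the next bins and 2.29% in the highest. By width, they made up 18.0% of promoter peaks up to 900 bp wide and 5.48% to 7.40% of wider ones, a share that is likewise not independent of the rule.

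By scaled reads per kb the highest was at 4732490B19Rik (chr11:113208451-113210400 of GRCm38), with 183 and 297 scaled reads against 55 and 79.4 in the inputs and log2 ratios of 1.72 and 1.89. It was followed by 4930481A15Rik, Arhgap22 (a GTPase-activating protein), Fbxo16, Gm13480, Prss27 (a serine protease), 9130230L23Rik, Tmem181b-ps, Zfp458 and Zfp442 (zinc finger proteins). By ratio the highest was at Gm9312 (chr12:24251851-24252750), with 63.6 and 115 scaled reads against 7 and 19.8 in the inputs. Its log2 ratios were 3.01 and 2.48, and the other 9 of the highest 10 had mean ratios from 1.95 to 2.12. Those were at Uty, at Hsf3 with Heph, at Zfp458, Arhgap22, 4930481A15Rik, Dynlt1f, Tmem140, at Gm12283 with 4921522H14Rik, and at Oas1g. Several are members of multigene families or pseudogenes (Tmem181b-ps, Dynlt1f, Zfp458, Gm9312), where reads of near-identical copies may be split or lost, and their values are uncertain. The most input reads, up to 127 and 203 scaled reads, were found at peaks of Gm16188 with Slc25a33, of Cyp2d34 and of Fmo4.

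The values next to the limits of the rule were as follows. The peaks at Csk and Pdgfrb lay 998 and 1000 bp from their starts and were counted, with log2 ratios of 1.53 and 0.85 for Csk and 0.83 and 1.41 for Pdgfrb in replicates 1 and 2. Peaks 1007 bp from Ccdc19 and Fkbp14 were not, with 1.04 and 1.24, and 1.14 and 1.63. On width, peaks of 4800 bp at Cyp2d34 and 4950 bp at Ces2a were counted, with ratios of 1.44 and 1.60, and 1.27 and 1.40. Peaks of 5100 bp at RP23-377G8.1 and 5250 bp at Lgals3 were not, with 1.30 and 1.22, and 1.61 and 1.80.

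Most of these promoters were far from any H3K4me3 peak, but not all. The median distance to the nearest one was 18151 bp. In 134 peaks (16%) it was under 1 kb, and 35 of these directly abutted an H3K4me3 peak. A further 206 peaks had one between 1 and 10 kb away, 276 between 10 and 50 kb and 224 at 50 kb or more. The peaks close to H3K4me3 stood at more active genes, with a median of 7.57 CPM per kb of exon and 82.6% of genes at 1 CPM or more, compared with 0.739, 0.823 and 1.02 CPM per kb and 52.3%, 54.0% and 61.9% in the bins farther out. The log2 ratio of H3K18cr did not follow this order, with medians between 1.13 and 1.16 in replicate 1 and between 1.37 and 1.42 in replicate 2. Of the 713 genes with H3K18cr alone, 31 had an H3K4me3 peak within 1 kb of the start in the table, beside the H3K18cr peak rather than on it, and 115 (16.1%) had one within 1 kb of some annotated transcript start of the gene in GENCODE M21. The remaining 598 had none at any annotated start. Plekha6, which encodes a pleckstrin homology domain protein, and Cnnm4, a basolateral magnesium transporter, were among the 115. At Cnnm4 the H3K18cr peak lay 920 bp from the start and abutted an H3K4me3 peak, and the window at the start had a CpG ratio of 1.11.

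By annotation, 631 of the 713 genes were found in GENCODE M21 by symbol, with 458 protein-coding and 162 long non-coding, and 82 were not found. The start in the table was within 100 bp of an annotated start for 615. In all, 254 of the 713 had a provisional name of the Gm or Rik kind. The use of strand in counting is not stated, so reads of such genes and of antisense partners cannot be told apart.

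Genes with H3K18cr alone were expressed at levels between those of genes with both marks and genes with neither. The median was 0.975, 0.883 and 0.901 CPM per kb of exon in mice 1, 2 and 3, a mean of 0.920 ± 0.049 (SD, n = 3 mice). Genes with both marks had a median of 7.47 ± 0.16, genes with H3K4me3 only 0.043 ± 0.0066 and genes with neither mark 0 in each mouse. At least 1 CPM was reached by 57.6%, 57.1% and 57.4% of the genes with H3K18cr alone, compared with 90.1% ± 0.25 with both marks, 36.2% ± 1.1 with H3K4me3 only and 12.5% ± 0.26 with neither (SD, n = 3). The values of the 4 classes did not overlap between mice. On the scale of log2(CPM + 0.1), which understates the change of low genes, the median of genes with H3K18cr alone was lower than that of genes with both marks by 4.06 and higher than that of genes with neither mark by 4.39, in 3 of 3 mice each (exact two-sided sign-flip permutation test, p = 0.25, which 3 mice cannot go below). Since the median of genes with neither mark was 0, the second difference depends on the pseudocount of 0.1 CPM: it was 1.59 with 1 CPM, and 1.69 among genes with at least 10 counts. Restricted to the 458 protein-coding genes, the share at 1 CPM or more was 76.9%, and the differences were -2.28 and 6.38 on that log2 scale. Together the 713 genes held 2.67% of all counts.

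**Figure D3:**
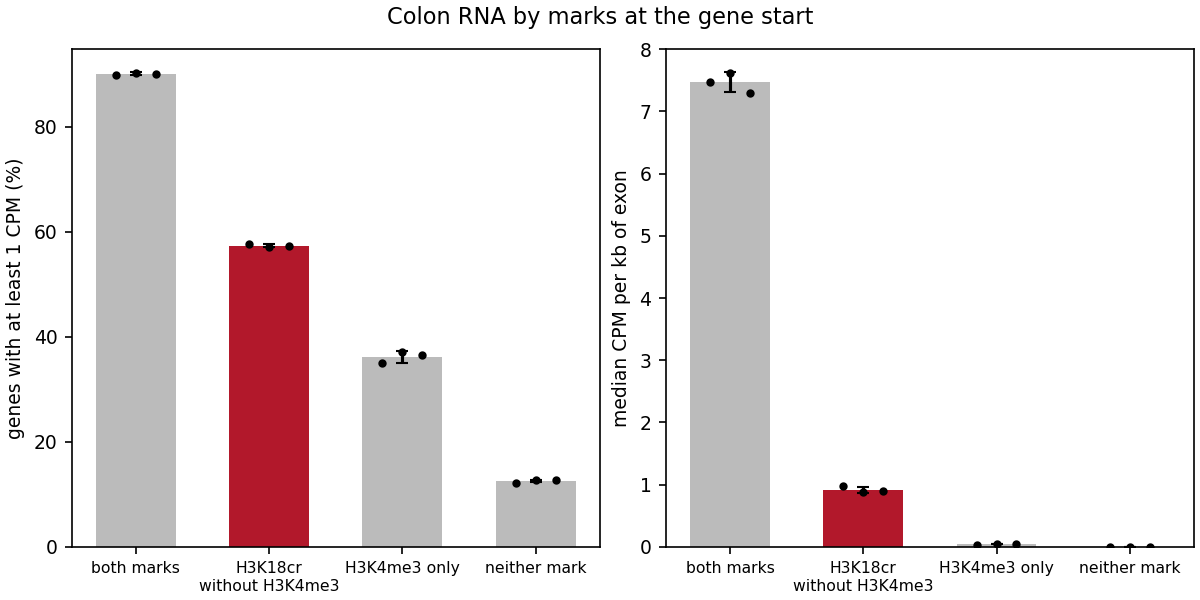
Left, share of genes with at least 1 CPM (%), and right, median CPM per kb of exon, by the marks at the gene start in mouse colon epithelium. Bars are means of 3 mice, error bars SD and points the single mice. Genes with H3K18cr and no H3K4me3, in red, reach 57.4% and 0.920 CPM per kb, between genes with both marks (90.1% and 7.47) and genes with H3K4me3 only (36.2% and 0.043).

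Expression was spread widely within the class. No read was counted in any mouse for 143 of the 713 genes, 406 had a mean of at least 1 CPM, 231 of at least 10 and 60 of at least 100. The quartiles of the level per length were 0.047 and 6.88 CPM per kb, and the highest 10% of genes lay above 27.4. Over the 631 genes with a length, the Spearman correlation with CPM per kb was 0.097 for the log2 ratio and 0.103 for reads per kb, and the median ratio was 1.32 for genes at 1 CPM or more and 1.24 for those below. Among promoter peaks of genes with no counts, 132 of 226 (58.4%) lacked H3K4me3. The share was 21.7% for genes up to 1 CPM per kb, 5.69% from 1 to 10, 4.42% from 10 to 100 and 6.87% (23 of 335, Wilson interval 4.62 to 10.1) at 100 and above.

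The most abundant transcripts came from goblet cell and colonocyte genes. Agr2 reached 2923, 3649 and 3062 CPM in mice 1, 2 and 3, and Klk1 2240, 2466 and 2544 CPM. Per kb of exon Agr2 had a mean of 2488 and Klk1 of 2244, and the values of single mice overlapped. Car1 followed with 1427, 881 and 1149 CPM (mean 923 per kb). The elongation factor genes with both marks had means of 2625 CPM per kb for Eef1a1 and 1584 for Eef2, so that Agr2 and Klk1 lay between them and Car1 below both. The H3K18cr peak of Agr2 (chr12:35992651-35995050) held 135 and 269 scaled reads against 70 and 67.2 in the inputs and lay 46351 bp from the nearest H3K4me3 peak. That of Klk1 (chr7:44224651-44226900), shared with Gm10109, held 137 and 216 against 60 and 67.2. That of Car1 (chr3:14776801-14778300) held 98.6 and 107 against 36 and 30.5, lay 159 bp into the gene and was 84601 bp from H3K4me3. The ratio at Agr2 differed between libraries, at 0.94 and 1.99 on the log2 scale.

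The next 9 genes by mean CPM included several enzymes of xenobiotic or redox metabolism. Gpx2, the glutathione peroxidase of the gut epithelium, had 585, 582 and 572 CPM, with 0 CG dinucleotides in its window and 2 H3K18cr peaks at its start. Cyp2c55, a cytochrome P450 that oxidises fatty acids and drugs, had 649, 536 and 474 CPM. Ugt1a2, which encodes a glucuronosyltransferase, had 458, 378 and 390.0 CPM, although the transcripts of the Ugt1a cluster share their last exons and the counts could be split among them. Sult1a1, a phenol sulfotransferase, had 423, 353 and 363 CPM. The others were 1600029D21Rik (630.0, 886 and 924 CPM), Clca4 of the chloride channel regulator family (547, 612 and 602), Plekha6 (419.5, 417 and 383), Selenbp1, a selenium-binding protein that oxidises methanethiol (479, 299 and 435), and Cnnm4 (395, 357 and 349).

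Lists of cell type and pathway genes, drawn up with earlier results of these data known, were set beside the marks. Over all 25965 genes of the table, 3.12% had an H3K18cr promoter peak without H3K4me3, and 3.84% of the genes at 1 CPM or more and 3.21% of those at 100 CPM or more did. Among 40 genes of xenobiotic and steroid metabolism it was 18 (45.0%), 2 of which, Hsd3b3 and Abcc3, also had a peak with H3K4me3. Cyp2c55 and Sult1a1 were the most abundant, followed by Abcc3 (283, 214 and 207 CPM), an efflux transporter of conjugated compounds. Then came Ces1f (158, 128 and 147 CPM) and Ces2a (194, 127 and 105 CPM), carboxylesterases that hydrolyse ester drugs, and Sult1d1 (121, 97.1 and 125 CPM), a sulfotransferase. Aldh1a1, which makes retinoic acid, had 108, 90.4 and 105 CPM. The Ces2a peak (chr8:104730901-104735850) held 283 and 425 scaled reads against 117 and 160 in the inputs, and the start window 1 CG dinucleotide. Each of the 18 genes was at 1 CPM or more.

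Among 23 absorptive colonocyte genes measured, 8 (34.8%) had H3K18cr without H3K4me3. Beside Car1 and Cyp2c55 these were Saa1, an acute phase protein (339, 383 and 180 CPM), Krt20, a keratin of differentiated surface cells (225, 201 and 118 CPM), Aqp8, a water channel (209, 207 and 78.9 CPM), Emp1 (153, 120 and 107 CPM), Guca2b, which encodes uroguanylin (36.9, 50.8 and 44.5 CPM), and Alpi, intestinal alkaline phosphatase (7.72, 6.35 and 5.77 CPM). Mouse 3 had the lowest value for Saa1, Krt20, Aqp8, Emp1 and Alpi. Krt20 and Alpi lay 901 and 1801 bp from an H3K4me3 peak, while Aqp8 was 36451 bp away. Of 25 genes of antimicrobial and mucosal defence, 5 (20%) were in the class. Saa1 was the most abundant, and the others were low, namely Itln1, a lectin of the mucus (2.94, 8.41 and 28.9 CPM), Sprr1a, Gbp2 and Saa3. Itln1 had its highest value in mouse 3. Of 19 goblet and deep secretory genes, 3 (15.8%) were, namely Agr2, Klk1 and Bcas1 (133, 147 and 120 CPM).

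The other lists held 1 such gene or none. There was 1 among 11 tuft cell genes (Sh2d6, 7.84, 7.19 and 13 CPM), 1 among 16 stem and cycling crypt genes (Ccnb1, cyclin B1, with 18.4, 23.5 and 19.4 CPM) and 1 among 18 stromal and muscle genes (Pdgfrb, 11.9, 7.85 and 7.94 CPM). At Sh2d6 an H3K4me3 peak abutted 1 of its 2 peaks, and at Ccnb1 one lay 301 bp away. None (0) was found among 15 enteroendocrine, 18 epithelial identity, 17 T and NK cell, 8 B and plasma cell, 18 myeloid, 10 enteric neuron and glia, and 18 housekeeping genes. The 18 epithelial identity genes were at 7 starts with both marks, 10 whose H3K18cr peak was 5 kb or wider, and 1 with H3K4me3 only, and the housekeeping genes at 16 starts with both marks and 2 of the wider kind. The lists were short, and the share in a list was not tested.

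**Figure D4:**
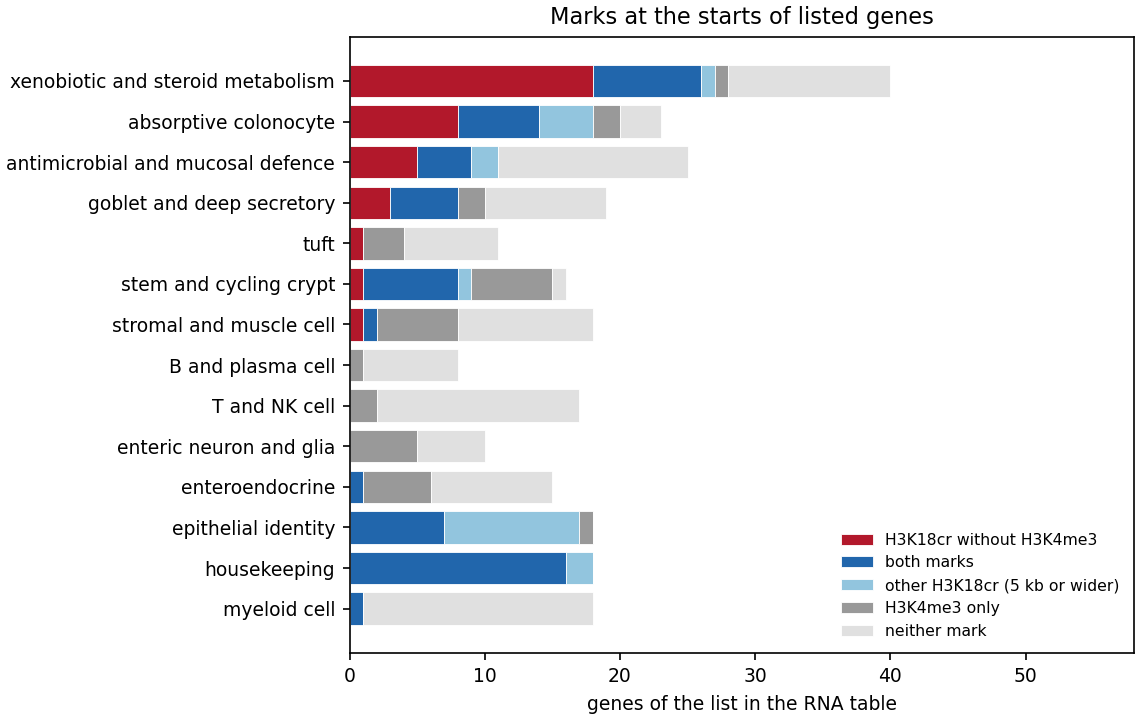
Number of genes (horizontal axis) of each list (vertical axis) by the marks at the gene start in mouse colon epithelium. Red is H3K18cr without H3K4me3, dark blue both marks, light blue H3K18cr promoter peaks of 5 kb or wider, dark grey H3K4me3 only and light grey neither mark. Red takes 18 of 40 genes of xenobiotic and steroid metabolism and 8 of 23 absorptive colonocyte genes, and 0 of 18 housekeeping genes. The lists were drawn up with earlier results of these data known.

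Families were counted by symbol after values had been seen. Over all genes, 3.12% had H3K18cr and no H3K4me3, and 3.84% of those at 1 CPM or more did. The carboxylesterase (Ces) family had 9 of 20 genes with H3K18cr and no H3K4me3 (45.0%), among them 8 of its 10 genes at 1 CPM or more, and 0 with both marks only. Sulfotransferases (Sult) had 4 of 17, glutathione transferases (Gst) 5 of 21 and cytochromes P450 (Cyp) 14 of 104, while 1, 8 and 13 genes of these families had both marks only. UDP-glucuronosyltransferases (Ugt) had 2 of 21, ABC transporters (Abc) 4 of 50, aldehyde dehydrogenases (Aldh) 3 of 20, keratins (Krt) 7 of 103, transmembrane serine proteases (Tmprss) 0 of 17 and gasdermins (Gsdm) 0 of 6. Solute carriers (Slc) had 20 of 370 (5.41%) and zinc finger genes (Zfp) 21 of 371 (5.66%), while olfactory receptors (Olfr) had 2 of 1110 (0.18%). The Ces, Sult and Cyp genes lie in clusters of near-identical copies, so that reads of neighbours may be split and the counts of single copies are uncertain.

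Whether the same promoters carried the mark in human cells was examined by gene symbol. Of the 713 genes, 314 (44.0%) had a namesake with the same symbol in the HCT116 RNA-seq table, compared with 80.3% of genes with both marks. A shared symbol does not prove orthology in families such as Gstm, and Car1, named CA1 in human, was not matched. Of the 314 namesakes, 127 had a peak of the HCT116 list within 1 kb of the start (40.4%, Wilson interval 35.2 to 46.0). This list was called once for all HCT116 libraries of H3K18cr and H3K18ac. The share was 87.7% for namesakes of genes with both marks, 50.4% with H3K4me3 only and 24.0% with neither. For genes at 1 CPM or more in colon it was 43.6% (102 of 234), compared with 88.6%, 71.9% and 44.1% in the same order, so that with expression in colon taken into account it was near that of genes with neither mark.

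In control HCT116 cells, 36.6% ± 0.94 of these namesakes reached 1 CPM (SD, n = 4 DMSO libraries), compared with 91.5% ± 0.54 of those of genes with both marks. Several of the genes that led in colon were low or had no counts. AGR2 had 0 counts in all 4 libraries, which held 36312506 to 53415604 counts each. KLK1 had 0.935, 1.60, 1.33 and 0.880 CPM, and SELENBP1 had 0, 0, 0.486 and 0. AQP8, GUCA2B, SAA1 and ITLN1 had 0 counts in each library, and KRT20 had 0.824, 1.10, 0.512 and 1.10 CPM although a peak lay at its start. Some namesakes were well expressed, such as CCNB1 (366, 310, 181 and 252 CPM), POLD2, a subunit of DNA polymerase delta (196, 168, 260.0 and 152 CPM), ANO1, a calcium-activated chloride channel (132, 145, 83.1 and 141 CPM), SULT1A1 (14.2, 27.5, 26.1 and 18.4 CPM) and CNNM4 (17.8, 17.0, 7.22 and 19.1 CPM).

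The share of H3K18cr reads was lower with MS275 at many of these human promoters. Of all 39399 HCT116 peaks tested, 23.4% were lower and 0.236% higher with MS275 at an adjusted p under 0.05 (limma with Benjamini-Hochberg adjustment over all peaks). Of the 132 peaks tested at namesakes of colon genes with H3K18cr alone, 70 were lower (53.0%) and 0 higher, with a median log2 difference of -0.51 against -0.20 over all peaks. Peaks shared with a namesake of another class were counted here. Of the namesakes with a human promoter window, the 96 with an HCT116 peak had a median CpG ratio of 0.644 and the 142 without one 0.292. For H3K18ac, 16.6% of 39479 peaks were lower and 0.261% higher, and at the namesakes 45 of 133 were lower (33.8%) and 0 higher, with a median of -0.49 against -0.19. Of peaks at namesakes of genes with both marks, 66.8% were lower in H3K18cr and 54.3% in H3K18ac. At other starts the shares were 42.3% and 29.9%, and away from starts 9.16% and 4.87%. The differences between these classes were not tested. Without a spike-in these values are shares of the reads of a library, so the differences are relative and give no change in the total amount of a mark. By western blot the study reports more histone crotonylation in HCT116 with MS275, and by ChIP-qPCR more H3K18cr at promoters and repeats. It proposes that the relative drop over starts could come from a rise elsewhere in the genome.

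The scaling bears on the size of these falls. TMM scaling put the median of all peaks at 0.038 rather than -0.20 for H3K18cr, and at 0.060 rather than -0.19 for H3K18ac, and the namesake peaks had medians of -0.26 and -0.24. With it 31 namesake peaks were called for H3K18cr, 29 lower and 2 higher, against 11.2% and 1.92% of all peaks. For H3K18ac 52 were called, 49 lower and 3 higher, against 16.7% and 4.77% of all peaks. Leaving out single libraries moved the H3K18cr count of 70 to 43 (1 of them higher) without DMSO replicate 2, 38 without MS275 replicate 1 and 42 without MS275 replicate 2, where 16.6%, 16% and 15.2% of all peaks were called. The H3K18ac count of 45 went to 26 without DMSO replicate 2, 29 without DMSO replicate 3, 12 without MS275 replicate 2 and 14 without MS275 replicate 3, where 7.78%, 9.70%, 3.68% and 4.92% of all peaks were called. A figure legend of the study names a paired test for both marks over gene starts. With the replicate number as a block, 8 of the 133 H3K18ac peaks were lower, against 2.24% of all peaks, and 78 of the 132 H3K18cr peaks were lower and 1 higher, against 26.6% and 0.505%. Of the 132 peaks tested for both without the block, both marks were lower at 41, H3K18cr alone at 29, H3K18ac alone at 4 and neither at 58, and whether the marks differed at these peaks was not tested.

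**Figure D5:**
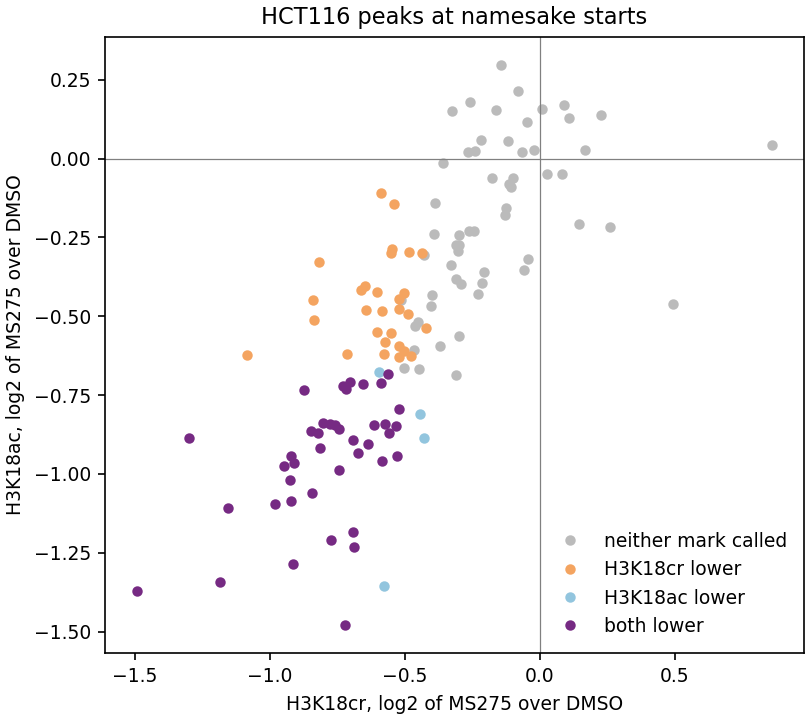
Log2 difference of MS275 over DMSO in H3K18cr (horizontal axis) and H3K18ac (vertical axis) for the HCT116 peaks at namesakes of colon genes with H3K18cr and no H3K4me3, in the authors' scaling. Each point is 1 peak, and colours give the marks with an adjusted p under 0.05 (limma). Most points lie below 0 on both axes, with 70 peaks called lower in H3K18cr and 45 in H3K18ac.

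In the authors' scaling, the largest falls in H3K18cr were at IGBP1, FTSJ1 and PEF1. At IGBP1 (chrX:70132951-70134600 of GRCh38), which encodes a regulatory subunit of protein phosphatase 2A, the deposited log2 value of H3K18cr was 6.29, 6.38 and 6.70 with DMSO and 5.46, 4.09 and 5.35 with MS275. All MS275 libraries were below all DMSO libraries, and the log2 difference was -1.49 (SE 0.26, adjusted p = 0.000123 from limma). At FTSJ1, a tRNA methyltransferase (chrX:48474901-48477300), the values were 7.17, 6.89 and 7.02 against 5.78, 5.46 and 5.95, a difference of -1.30 (SE 0.19, adjusted p = 3.37e-05 from limma). At PEF1, a calcium-binding protein (chr1:31643551-31646400), it was -1.18 (SE 0.18, adjusted p = 3.92e-05 from limma). In H3K18ac the largest falls were at POLD2 (chr7:44122351-44124600), with 7.54, 7.88 and 8.38 against 6.77, 6.15 and 6.44 and a difference of -1.48 (SE 0.25, adjusted p = 8.60e-06 from limma), at IGBP1 (-1.37) and at the apolipoprotein gene APOC1 (-1.36). Each of these 6 calls held in all 6 fits that left out 1 library, and TMM scaling kept each direction. In the authors' scaling with all libraries, limma without a block called no peak of these namesakes higher.

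Without pairing, edgeR called no namesake changed in RNA. Of 148 genes tested, 0 were called by edgeR's quasi-likelihood test with Benjamini-Hochberg adjustment over 14961 genes, where 0.00668% of all genes were higher and 0 lower. At an unadjusted p under 0.05 there were 10 of the 148, for which no share over all genes was computed. DESeq2 called 1, CEND1, against 0.938% of all genes. Same-numbered DMSO and MS275 libraries deviated together, although DMSO replicate 2 matched an MS275 library of another number better. Once the replicate number entered as a block, 26 of the 148 were called, 14 higher (9.46%) and 12 lower (8.11%), against 7.83% and 6.55% of all genes. Namesakes of genes with both marks had 8.60% and 8.73%. The largest rises in the blocked fit were at CEND1, a regulator of neuronal cell cycle exit, AKAP6, a scaffold of protein kinase A, and PCOLCE, an enhancer of procollagen processing. CEND1 had 0.178, 0, 0.589 and 0.318 CPM with DMSO and 4.06, 2.03, 9.16 and 1.55 CPM with MS275, without overlap (log2 difference 4.05, SE 0.72, adjusted p = 0.00364 from edgeR with the block and 0.336 without it). The log2 rises of AKAP6 and PCOLCE were 2.24 and 1.32 (adjusted p = 0.0307 and 0.0360 from edgeR with the block). The groups overlapped for AKAP6 and not for PCOLCE, which had 2.43, 0.881, 3.76 and 2.38 CPM with DMSO and 3.91, 5.42, 10.3 and 3.86 CPM with MS275. The largest falls were at KRT23 (-0.74, adjusted p = 0.0382 from edgeR with the block), ALDH3B1 (-0.63, adjusted p = 0.00609) and PPCDC (-0.60, adjusted p = 0.0465). ALDH3B1, an aldehyde dehydrogenase, had 12.3, 30.1, 30.8 and 32.1 CPM with DMSO and 8.95, 18.5, 17.8 and 22.9 with MS275, lower in 4 of 4 pairs while the groups overlapped. None of these 6 was called by edgeR without the block.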

How the data were processed

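The deposited tables cover 33 libraries. The authors trimmed reads (Trim Galore 0.4.2, with TopHat2 2.0.12 and Bowtie2 2.2.5 also in the submitters' processing notes; the methods name HiSat2 for mouse RNA), removed ChIP duplicates and quantified in SEQMONK on GRCm38 or GRCh38. The RNA tables hold raw read counts per gene as deposited. The colon ChIP tables hold a signal per MACS peak that the authors made by scaling reads to the largest library. The HCT116 ChIP table holds the log2 of such scaled reads, as deposited by the authors. In every ChIP library 100% of values were whole reads times 1 factor, within 0.02 read, so depth was recovered. 0 columns were left unmapped.

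The members and gene lists were chosen with earlier results of these data known. A promoter was a region within 1 kb of a gene start of the RNA table, and overlap meant at least 1 bp. Exon lengths, biotypes and other starts came from GENCODE M21 by symbol. Windows of 300 bases were read by coordinates from the RefSeq GRCm38 genome, as the promoter table covers human genes, and human windows from the RefSeq promoter table (GRCh38). Genes named were the 12 with the highest CPM, the 10 highest peaks by reads per kb, the 10 highest by ratio among those with at least 50 scaled reads in each library, list members (at most 5 a list by CPM, with a few more given), those nearest a limit of the rule, the 3 highest inputs, and the 3 largest called rises and falls at namesakes in each fit. Since the unblocked RNA fit called none, that rule was also applied to the blocked fit.

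Tests used R 4.3.3, limma 3.58.1 with a mean-variance trend on peaks with at least 10 recovered reads in at least 3 libraries, edgeR 4.0.16 (quasi-likelihood, TMM, filterByExpr) and DESeq2 1.42.0, with Benjamini-Hochberg adjustment and a threshold of 0.05, and were tested on simulated data. Other steps used Python 3.11.15, numpy 2.4.6, pandas 2.3.3, scipy 1.17.1, statsmodels 0.14.6 and matplotlib 3.10.9. For HCT116, neither labels nor methods say what a replicate number shares between treatments. In HCT116 RNA, deviations of same-numbered libraries correlated at 0.226, 0.151, 0.433 and 0.460, each over 0.1, so the numbers were taken as pairs. DMSO replicate 2, at 0.151, correlated better with an MS275 library of another number. Nothing in the labels says that the HCT116 libraries came from separate cultures for ChIP, and p-values measure the spread between these libraries. Alternatives changed scaling, filters, distances, pseudocounts (1 read, 0.1 CPM), tools and libraries.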

Additional observations from a re-analysis of the deposited data

Results flagged for a closer look

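1 value stood apart from its group. Among the 22 groups of 4 HCT116 libraries examined at named namesakes, the lowest DMSO value of ALDH3B1, 12.27 CPM in replicate 1, lay far below the other 3, at 30.1, 30.8 and 32.1 CPM (Dixon's critical value for 4 samples, 0.829). MS275 replicate 1 was also the lowest of its group, at 8.95 CPM. Chance alone marks about 1 in 20 such groups.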

How the results depend on the processing

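The number of promoters moved from 840 to 1339 when starts within 2 kb were used and to 380 among peaks with a ratio above the median; 4 other choices gave 681 to 1100. The lower H3K18cr reads per kb turned to 1.26 higher without peaks of 20 or more input reads, and ranged from -23.5 to -11.4 over single libraries, while the ratio ranged from -0.31 to -0.24. RNA against genes with both marks ranged from -4.09 to -4.00 on the log2 scale without single mice and from -4.57 to -1.98 under the other choices, and against genes with neither mark from 4.37 to 4.44 and from 1.59 to 6.38. The share of genes at 1 CPM or more was 57.2% to 57.5% without single mice, 88.5% of genes with at least 10 counts, 59.7% within 0.5 kb, 55.9% where H3K4me3 within 1 kb counted, 76.9% of protein-coding genes, 48.9% per kb and 53.2% without genes with H3K4me3 at another annotated start, the last chosen after seeing the data.

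Calls of H3K18cr at namesakes were 70, all lower, against 23.7% of all peaks called. They went to 31 with TMM (29 lower), 30 with edgeR (29 lower), 21 with DESeq2 and 37 without a variance trend (chosen after seeing the data). Of all peaks, 13.1%, 13.9%, 8.81% and 14.6% were called in these fits. Without single libraries the calls went to 38 to 81 (at most 1 higher in each), with 15.2% to 32.2% of all peaks called. H3K18ac calls (45, against 16.8% of all peaks) went to 12 to 65 without single libraries, with 3.68% to 24.0% of all peaks called. RNA calls (0) went to 1 with DESeq2, against 0.938% of all genes, and stayed at 0 without single libraries. With the replicate block, 26 genes, 79 H3K18cr peaks and 8 H3K18ac peaks were called, against 14.4% of all genes and 27.1% and 2.27% of all H3K18cr and H3K18ac peaks. Of the 79 peaks, 1, at NKPD1, was higher (adjusted p = 0.00908 from limma with the block). For H3K18cr the same-numbered libraries correlated at 0.111, 0.0787 and 0.241, each library best with its own number, and for H3K18ac at -0.207, 0.0487 and -0.136. The values of H3K18ac did not show pairing, and those of H3K18cr were positive but not all over 0.1. The causes were not tested.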

Other observations

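Of the 314 namesakes of colon genes with H3K18cr and no H3K4me3, 238 had a window in the RefSeq promoter table, with a median CpG ratio of 0.352, and 129 (54.2%) were under 0.4. For namesakes of genes with both marks the median was 0.857 and 7.35% were under 0.4 (n = 6394). An HCT116 peak lay at 33 of the 129 namesakes with a ratio under 0.4 (25.6%, Wilson interval 18.8 to 33.7), at 14 of 37 from 0.4 to 0.6 (37.8%) and at 49 of 72 at 0.6 and above (68.1%, interval 56.6 to 77.7). At the same ratios, namesakes of genes with both marks had a peak in 60.4%, 80.9% and 91.4%, those of genes with H3K4me3 only in 30.9%, 39.8% and 56.6%, and those of genes with neither mark in 13.9%, 20.2% and 50.6%.

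The share of H3K18cr promoter peaks without H3K4me3 varied among chromosomes, from 4.94% on chromosome 9 (27 of 547) to 13% on chromosome 17 (67 of 516), with 11.2% on X (30 of 267) and 2 of 4 on Y. Among peaks at namesakes, 11 of 132 had a positive log2 difference in H3K18cr with MS275. The largest, at NKPD1, was 0.86 (adjusted p = 0.0720 from limma, and past the threshold in 2 of the 6 fits that left out 1 library), with 5.25, 4.54 and 3.21 under DMSO and 5.42, 5.50 and 4.66 under MS275. That at ALDH1A1, picked after its value was seen, was 0.49 (adjusted p = 0.104 from limma and 0.0187 from edgeR on the recovered reads), with 5.43, 5.49 and 5.92 under DMSO and 6.00, 5.82 and 6.49 under MS275.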
